A study of Mus musculus with 21 samples.

Results

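The 10 genes described here belong to the unfolded protein response of the endoplasmic reticulum (ER). They are the sensor genes Atf6, Ern1 and Eif2ak3, the transcription factor gene Xbp1, the chaperone genes Hspa5 and Hsp90b1, the co-chaperone genes Dnajb9 and Sdf2l1, the disulfide isomerase gene Pdia4 and the ER degradation gene Herpud1. They were taken by symbol from a deposited log2 table of 20900 genes, and were chosen with earlier results of these data known. All 10 were among the 14666 genes tested, which had a log2 value above 0 in at least 3 of 21 libraries. The cells were E14, one mouse embryonic stem cell line of the 129 strain, grown in serum with leukaemia inhibitory factor (LIF), the cytokine that holds such cells undifferentiated. Untreated cells (0 h, the control) were compared with cells given medium holding 1 µM BMH-21 or 1 µM CX-5461 for 2, 4 or 8 h. Both small molecules block RNA polymerase I, which transcribes the ribosomal RNA genes. Poly(A) RNA was sequenced from 3 replicates in each of the 7 groups. The labels name no vehicle and no change of medium for the 0 h cells, so the effect of an inhibitor and that of time in fresh medium cannot be told apart. They do not say that replicates were separate cultures, so p-values measure only the spread between these samples.

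Background helps to place these genes. When unfolded proteins accumulate in the ER, the ATF6 protein (Atf6) moves to the Golgi and is cut to release a transcription factor. IRE1 (Ern1) splices the Xbp1 messenger RNA so that it encodes an active factor, and PERK (Eif2ak3) phosphorylates eIF2α, which lowers protein synthesis and raises translation of ATF4. The released factors act on genes for chaperones such as BiP (Hspa5) and GRP94 (Hsp90b1), for disulfide formation and for degradation of misfolded proteins, and embryonic stem cells express this machinery without added stress. Cutting, phosphorylation and splicing were not measured here: the table gives 1 value per gene, so spliced and unspliced Xbp1 RNA were counted together.

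Positions are those of GENCODE M21 on GRCm38, the assembly called mm10 in the submitters' processing notes, and all 10 genes are annotated there as protein-coding. The sensor genes were Atf6 (ENSMUSG00000026663.6) at chr1:170704674-170867771 on the minus strand, Ern1 (ENSMUSG00000020715.9) at chr11:106394650-106487852 on the minus strand and Eif2ak3 (ENSMUSG00000031668.14) at chr6:70844515-70905245 on the plus strand. Xbp1 (ENSMUSG00000020484.18) at chr11:5520659-5525893 on the plus strand follows in the pathway. The chaperone genes were Hspa5 (ENSMUSG00000026864.13) at chr2:34771970-34777547 on the plus strand and Hsp90b1 (ENSMUSG00000020048.13) at chr10:86690209-86705509 on the minus strand. Among the remaining genes, Dnajb9 (ENSMUSG00000014905.4) at chr12:44205559-44210326 on the minus strand and Sdf2l1 (ENSMUSG00000022769.9) at chr16:17130138-17132383 on the minus strand encode co-chaperones. Finally, the table held Pdia4 (ENSMUSG00000025823.9) at chr6:47796141-47813430 on the minus strand and Herpud1 (ENSMUSG00000031770.16) at chr8:94386438-94395377 on the plus strand.

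The 3 promoter stretches are shown because they carry the ER stress response element (ERSE, CCAAT, 9 bases, CCACG) or ERSE-II (ATTGG, 1 base, CCACG), the letters that ATF6 and NF-Y are known to recognise. Promoters were RefSeq sequences of GRCm38.p6 from 250 bases before to 50 after each gene's start, and 9 of the 10 genes had one (Atf6 did not). Both strands were searched, capitals mark the match, and positions are counted from the RefSeq start, which for Hspa5 and Hsp90b1 lies inside the longer GENCODE gene.
Hspa5, chr2:34771995-34772073, plus strand: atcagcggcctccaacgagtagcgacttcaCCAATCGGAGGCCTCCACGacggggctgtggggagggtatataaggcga
Hsp90b1, chr10:86705503-86705686, minus strand: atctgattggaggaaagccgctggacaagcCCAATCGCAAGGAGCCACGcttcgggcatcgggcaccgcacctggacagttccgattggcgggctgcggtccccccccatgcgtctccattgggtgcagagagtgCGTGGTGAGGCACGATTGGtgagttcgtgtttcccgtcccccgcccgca
Herpud1, chr8:94386347-94386417, plus strand: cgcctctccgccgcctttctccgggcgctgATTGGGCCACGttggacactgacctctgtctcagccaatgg
The Hspa5 element lay at -65 to -47. Hsp90b1 held 2 elements, at -212 to -194 and, on the other strand, at -107 to -89. ERSE occurred in 39 of 32851 promoters (0.119%), and in 2 of the 9 here. ERSE-II, at -52 to -42 of Herpud1, occurred in 12 of 32851 (0.0365%) and in 1 of the 9. The XBP1 and ATF6 element TGACGTGG (0.676% of promoters), the cyclic AMP element TGACGTCA (1.79%) and the amino acid response element TGATGNAAT (0.965%) were each found in 0 of the 9 windows. ERSE and ERSE-II were searched as known elements of this pathway, so these counts are no test of enrichment. A match is a description of letters, and no binding was measured.

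Libraries held 46604397 to 62812641 reads, recovered as whole numbers from the log2 values. At this depth 3 reads stood at a log2 value of -4.63 to -3.59, far below every member, and all pairs of replicates differed by more than counting noise (chi-square per degree of freedom 2.65 to 27.3). The deposited scaling factors ran from 0.832 to 1.375, while median-ratio factors of the same reads ran from 0.941 to 1.107. Centring each library on its median over the genes tested shifted all log2 fold changes against control together. BMH-21 lost a common shift of -0.08 (2 h), -0.15 (4 h) and -0.21 (8 h) in this way, and CX-5461 one of -0.15, -0.16 and 0.22. Fold changes below are therefore given as deposited, and most have the centred value beside them. All 8 embryonic stem cell markers had a mean log2 value above 0 in every group. Their summed level, on the linear scale and as deposited, was 4995 to 5773 in control libraries. It was 4135 to 4540, 2936 to 3391 and 2285 to 2394 after 2, 4 and 8 h of BMH-21, and 3763 to 4449, 2958 to 3527 and 4209 to 4520 after CX-5461. With CX-5461 it was lowest at 4 h and higher again at 8 h, as many members were, though still below control. These sums were not centred, and from 4 h to 8 h of CX-5461 centring removes a common log2 shift of 0.37. The part of these differences in the results below was not tested, and in bulk RNA fewer cells of a type and less RNA per cell cannot be told apart.

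In untreated cells the chaperone genes were the most abundant. Per kilobase of exon, on the log2 scale, the mean control level was 7.84 ± 0.13 for Hsp90b1, 7.42 ± 0.12 for Hspa5, 6.28 ± 0.13 for Pdia4, 5.33 ± 0.12 for Xbp1 and 4.80 ± 0.10 for Sdf2l1 (SD, n = 3). Dnajb9 (2.65 ± 0.13), Herpud1 (2.47 ± 0.15), Eif2ak3 (2.46 ± 0.12) and Atf6 (2.22 ± 0.13) stood lower, and Ern1 was lowest at 0.51 ± 0.14. The step between Herpud1 and Eif2ak3 was smaller than their spread.

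Many members moved in 2 phases, a fall and then a rise, that differed between the inhibitors. Ern1 and Eif2ak3 did not follow this course. The median over all genes was -0.28 at 4 h and 0.11 at 8 h of CX-5461 as deposited (centred -0.12 and -0.11). At 4 h of either compound Hspa5, Hsp90b1, Pdia4 and Xbp1 had fallen below control. Xbp1 with BMH-21 fell most (-1.64 on the log2 scale, 0.322 of the control level as deposited, centred -1.49). By 8 h of CX-5461, Hspa5 (1.69 times its control level as deposited), Hsp90b1 and Pdia4 were above control. So were Sdf2l1 (1.93 times) and Herpud1 (1.69 times). These deposited ratios include the common log2 shift of 0.22 given above. After centring the log2 changes were 0.54 for Hspa5, 0.74 for Sdf2l1 and 0.54 for Herpud1. The Xbp1 rise of 0.25 as deposited was 0.03 after centring. After 8 h of BMH-21, Xbp1, Pdia4, Atf6 and Hsp90b1 were still below control, and Eif2ak3 and Herpud1 were the 2 of the 10 that had risen, both as deposited and after centring. Other scalings called 2 more genes higher at that time: Hsp90b1 (0.23) and Hspa5 (0.42) with quantile normalization, and Sdf2l1 (0.19, adjusted p = 0.0088) and Dnajb9 (0.14, adjusted p = 0.038) with median-ratio factors. The counts that follow come from limma with Benjamini-Hochberg adjustment over all 14666 genes at a threshold of 0.05.

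**Figure D1:**
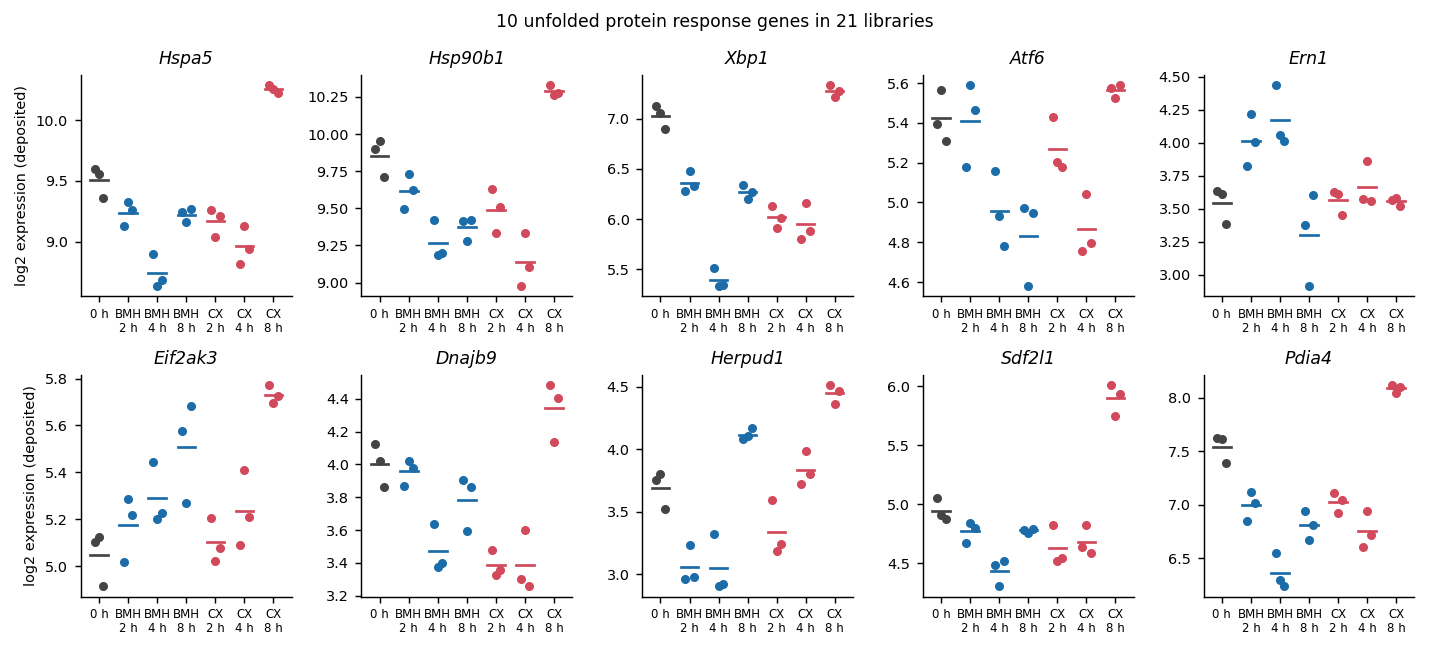
Deposited log2 expression (y axis) of the 10 genes in each of 21 libraries, by group (x axis; BMH, BMH-21; CX, CX-5461); points are libraries and bars are group means (n = 3). For Hspa5, Hsp90b1, Sdf2l1 and Pdia4 the 3 libraries of 8 h CX-5461 lie above every other library, as they also do after centring.

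With BMH-21 at 2 h, 1 of 10 genes was higher than control (8.48% of all genes tested were) and 4 were lower (11.2% of all genes). At 4 h, 2 were higher (22.1% of all genes) and 8 lower (44.9% of all genes), with a median over the 10 of -0.56 against -0.21 over all genes. The 8 h counts were 2 higher (24.5% of all genes) and 5 lower (56.9% of all genes), with medians of -0.26 and -0.40, so the share of members called lower was close to the background. Centring gave 2 higher (18.6% of all genes) and 5 lower (17.5%) at 2 h, 2 (32.2%) and 8 (41.5%) at 4 h, and 2 (33.3%) and 4 (51.3%) at 8 h. The 8 h split was 4 higher (33.5% of all genes) and 3 lower (50.7%) with quantile normalization, and 4 (39.2%) and 4 (43.3%) with median-ratio factors.

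With CX-5461, 0 of 10 genes were higher and 7 lower at 2 h (7.45% and 20.5% of all genes), and again 0 and 7 at 4 h (19.8% and 51.2% of all genes). At 8 h the split turned to 8 higher and 0 lower, where 35.1% of all genes were higher and 14.3% lower. The median over the 10 genes was -0.34, -0.55 and 0.49 at the 3 times, against -0.18, -0.28 and 0.11 over all genes. After centring the splits were 1 higher (15.8% of all genes) and 7 lower (17.8%) at 2 h, 3 (28.5%) and 6 (45.7%) at 4 h, and 6 (29.3%) and 1 (44.7%) at 8 h. Of the 7 genes lower at 2 h of CX-5461, 4 passed the threshold without control replicate 1 and 3 without CX-5461 2 h replicate 2.

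**Figure D2:**
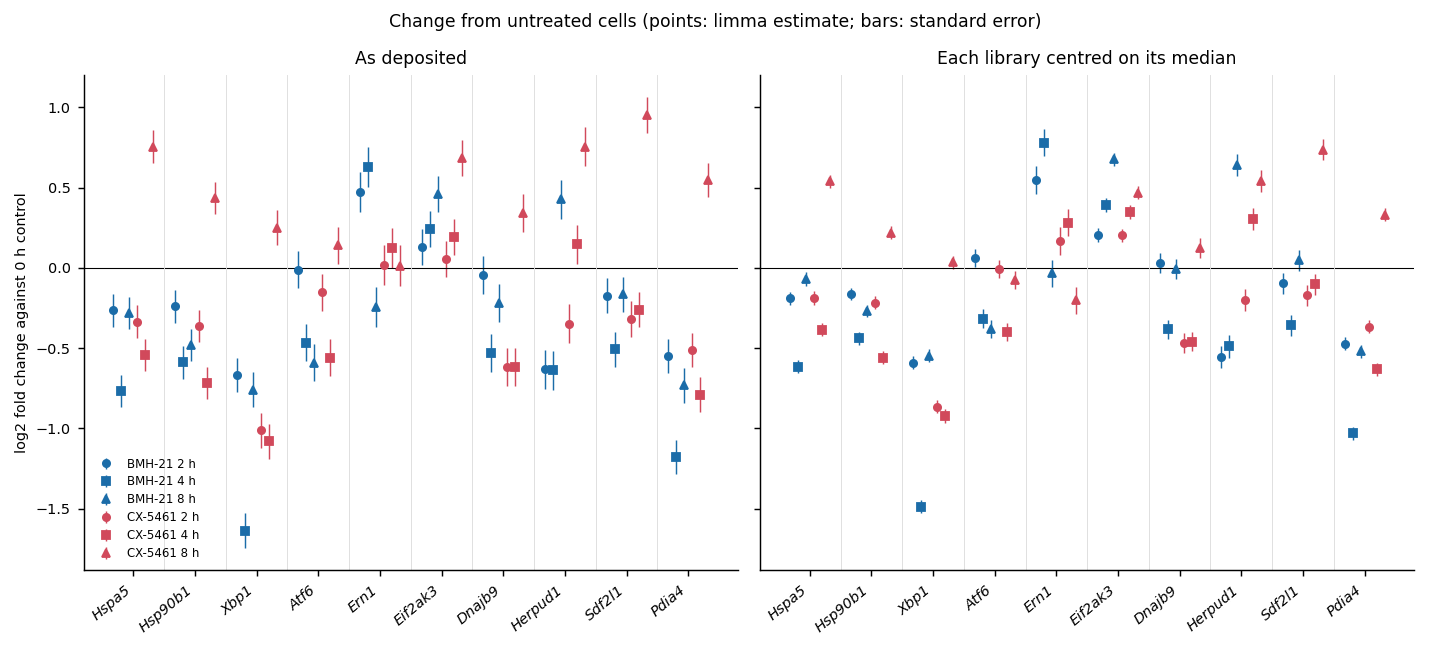
Log2 fold change against 0 h control (y axis) for the 10 genes (x axis) at 2, 4 and 8 h of each inhibitor, from limma, as deposited (left) and centred (right); bars are standard errors, with 3 libraries a group. Xbp1 at 4 h of BMH-21 is the lowest point on both scales (-1.64 and -1.49), and Sdf2l1 at 8 h of CX-5461 is highest as deposited (0.95).

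Of the 3 sensors, Atf6 fell late with BMH-21 and returned with CX-5461. Its values were 5.39, 5.57 and 5.31 in the control libraries, 5.18, 5.59 and 5.46 at 2 h of BMH-21, 5.16, 4.93 and 4.78 at 4 h and 4.97, 4.58 and 4.95 at 8 h. With CX-5461 they were 5.43, 5.20 and 5.18, then 4.76, 5.04 and 4.80, then 5.58, 5.53 and 5.59. The 4 h libraries of both compounds and the 8 h BMH-21 libraries lay below every control library, while the others overlapped them. The change at 4 h was -0.47 (SE 0.11, adjusted p = 0.0002; centred -0.32) with BMH-21 and -0.56 (SE 0.11, adjusted p = 9.9e-06; centred -0.40) with CX-5461. At 8 h it was -0.59 (SE 0.11, adjusted p = 1.9e-06; centred -0.38) with BMH-21, whereas CX-5461 gave 0.14 as deposited, not past the threshold, and -0.07 after centring.

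Ern1, the gene of IRE1, did not follow the chaperones. It stood at 3.64, 3.61 and 3.39 in control, 3.82, 4.22 and 4.00 at 2 h of BMH-21, 4.44, 4.06 and 4.02 at 4 h and 3.38, 2.92 and 3.60 at 8 h. All 2 h and 4 h BMH-21 libraries were above control, and the 8 h libraries overlapped it, with replicate 2 lowest. With BMH-21 it was above control by 0.47 (SE 0.12, adjusted p = 0.0025, centred 0.55) at 2 h and 0.63 (SE 0.12, adjusted p = 4.8e-06, centred 0.78) at 4 h. It fell by 0.88 from 4 h to 8 h (SE 0.12, adjusted p = 1.5e-09, centred -0.81). The 8 h value against control, -0.25 (centred -0.03), passed the threshold only without control replicate 3 or BMH-21 replicate 1 or 3. CX-5461 libraries gave 3.63, 3.61 and 3.45 at 2 h, 3.58, 3.86 and 3.56 at 4 h and 3.57, 3.59 and 3.52 at 8 h. None of these 3 changes passed the threshold as deposited (0.02, 0.12 and 0.01), but centring called Ern1 higher at 4 h (0.28) and lower at 8 h (-0.20).

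Eif2ak3, the gene of PERK, was higher at 8 h of both compounds. Control values of 5.10, 5.12 and 4.91 compared with 5.02, 5.29 and 5.22 at 2 h, 5.44, 5.20 and 5.23 at 4 h and 5.58, 5.27 and 5.68 at 8 h of BMH-21. With CX-5461 they were 5.21, 5.02 and 5.08, 5.09, 5.41 and 5.21 and 5.77, 5.69 and 5.73. Every 8 h library of either compound exceeded every control library. The rise at 8 h was 0.46 (SE 0.11, adjusted p = 0.0001; centred 0.67) with BMH-21 and 0.68 (SE 0.11, adjusted p = 7.3e-08; centred 0.47) with CX-5461. The 4 h rise with BMH-21, 0.24 (SE 0.11, adjusted p = 0.048; centred 0.39), was lost without control replicate 1 (adjusted p = 0.058), control replicate 3 (0.20) or BMH-21 replicate 1 (0.21), and with no filter, eBayes without trend, the groups compared alone or the replicate block (0.056 to 0.072), and its adjusted p ran from 4.2e-09 to 0.21 over the alternatives. After centring Eif2ak3 was called higher in all 6 comparisons with control.

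Xbp1, whose RNA is the substrate of IRE1, showed the deepest fall of the 10. It stood at 7.13, 7.06 and 6.90 in control, 6.28, 6.48 and 6.33 at 2 h of BMH-21, 5.51, 5.33 and 5.34 at 4 h and 6.34, 6.20 and 6.27 at 8 h. CX-5461 gave 6.13, 5.91 and 6.01 at 2 h, 5.80, 6.16 and 5.88 at 4 h and 7.34, 7.21 and 7.28 at 8 h. All BMH-21 libraries and the 2 h and 4 h CX-5461 libraries lay below control, and the 8 h CX-5461 libraries lay above it as deposited but overlapped it after centring. The change was -0.67 (SE 0.11, adjusted p = 1.9e-07; centred -0.59) at 2 h of BMH-21, -1.64 (SE 0.11, adjusted p = 5.4e-29; centred -1.49) at 4 h and -0.76 (SE 0.11, adjusted p = 2.5e-10; centred -0.55) at 8 h. With CX-5461 it was -1.01 (SE 0.11, adjusted p = 1.8e-14; centred -0.86) at 2 h and -1.08 (SE 0.11, adjusted p = 8.8e-17; centred -0.92) at 4 h. The 8 h rise with CX-5461, 0.25 (SE 0.11, adjusted p = 0.044; centred 0.03), was not past the threshold after centring (adjusted p = 0.46), with the replicate block (0.055), with eBayes without trend (0.053) or without control replicate 2 (0.071), control replicate 3 (0.18) or CX-5461 replicate 1 (0.15), 2 (0.053) or 3 (0.099). Over its alternatives the adjusted p ran from 9.5e-07 to 0.46.

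Hspa5 encodes BiP, the ER Hsp70 chaperone, and its promoter stretch above holds an ERSE. Values were 9.60, 9.55 and 9.36 in control, 9.13, 9.33 and 9.26 at 2 h of BMH-21, 8.90, 8.63 and 8.69 at 4 h and 9.24, 9.16 and 9.27 at 8 h. With CX-5461 they were 9.26, 9.04 and 9.21, 8.82, 9.13 and 8.94 and 10.29, 10.26 and 10.23. The 3 libraries of 8 h CX-5461 were the highest of the 21, and all other treated libraries lay below control, though after centring those of 8 h BMH-21 overlapped it. At 4 h Hspa5 fell by 0.77 with BMH-21 (SE 0.10, adjusted p = 2.8e-11; centred -0.62) and by 0.54 with CX-5461 (SE 0.10, adjusted p = 1.1e-06; centred -0.38). At 8 h of CX-5461 it rose by 0.75 (SE 0.10, adjusted p = 8e-11; centred 0.54).

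The smaller Hspa5 changes were less firm. At 2 h it was -0.27 (SE 0.10, adjusted p = 0.047; centred -0.19) with BMH-21, and this call was lost without control replicate 1 or 2 or BMH-21 replicate 1 or 3 (adjusted p 0.097 to 0.25) and with no filter, eBayes without trend, the groups compared alone or the replicate block (0.057 to 0.11). At 2 h of CX-5461 it was -0.33 (SE 0.10, adjusted p = 0.0076; centred -0.19), lost without control replicate 1 (0.068) or CX-5461 replicate 2 (0.083). The fits in which these 2 h calls were lost all kept the deposited scaling. After centring both 2 h changes passed the limma threshold (adjusted p = 0.0008 with BMH-21 and 0.00096 with CX-5461), and neither group overlapped control. The 8 h value with BMH-21 was -0.28 (SE 0.10, adjusted p = 0.0077; centred -0.07), no longer past the threshold after centring (adjusted p = 0.12) or without control replicate 1 (0.053), and its direction turned with median-ratio factors (0.07) and quantile normalization (0.42). Over alternatives these adjusted p-values ran from 0.00011 to 0.25, 0.00076 to 0.083 and 2.1e-11 to 0.12.

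Hsp90b1 encodes GRP94, the ER Hsp90 chaperone, and has the promoter with 2 ERSE matches. Control libraries stood at 9.90, 9.96 and 9.71, against 9.50, 9.73 and 9.62 at 2 h, 9.42, 9.18 and 9.20 at 4 h and 9.41, 9.28 and 9.42 at 8 h of BMH-21. CX-5461 libraries stood at 9.63, 9.34 and 9.51, 8.98, 9.33 and 9.10 and 10.33, 10.26 and 10.28. As for Hspa5, the 8 h CX-5461 libraries were above all others, and only the 2 h BMH-21 libraries overlapped control among the rest. At 4 h it was -0.59 (SE 0.10, adjusted p = 1.5e-07; centred -0.44) with BMH-21 and -0.72 (SE 0.10, adjusted p = 4.6e-10; centred -0.56) with CX-5461. At 8 h the compounds parted, with -0.48 (SE 0.10, adjusted p = 8.6e-06; centred -0.27) for BMH-21 and 0.44 (SE 0.10, adjusted p = 0.00013; centred 0.22) for CX-5461, though quantile normalization turned the BMH-21 value to 0.23. The 2 h change with CX-5461 was -0.36 (SE 0.10, adjusted p = 0.0037, centred -0.22). Its call was lost without CX-5461 replicate 2 (adjusted p = 0.065, in a range of 9.6e-05 to 0.065 over alternatives). The 2 h change with BMH-21, -0.24 (centred -0.16), passed the threshold only after rescaling or without control replicate 3 or BMH-21 replicate 2.

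Pdia4, a protein disulfide isomerase that forms and rearranges disulfide bonds, differed from control in all 6 comparisons. It stood at 7.62, 7.61 and 7.39 in control, 6.85, 7.12 and 7.02 at 2 h of BMH-21, 6.55, 6.30 and 6.24 at 4 h and 6.94, 6.67 and 6.81 at 8 h. With CX-5461 the values were 7.11, 6.93 and 7.05, 6.60, 6.94 and 6.72 and 8.12, 8.04 and 8.10. No treated group overlapped control on either scale: the 8 h CX-5461 libraries were above it and the other 5 groups below. The changes were -0.55 (SE 0.11, adjusted p = 2.1e-05; centred -0.47), -1.18 (SE 0.11, adjusted p = 3.8e-19; centred -1.03) and -0.73 (SE 0.11, adjusted p = 7.5e-10; centred -0.52) at 2, 4 and 8 h of BMH-21. They were -0.51 (SE 0.11, adjusted p = 7e-05; centred -0.37), -0.79 (SE 0.11, adjusted p = 1.2e-10; centred -0.63) and 0.55 (SE 0.11, adjusted p = 5.8e-06; centred 0.33) with CX-5461.

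Dnajb9 (ERdj4) is a J-domain co-chaperone that binds BiP. Its control values were 4.13, 4.02 and 3.86, with 3.87, 4.02 and 3.98 at 2 h, 3.64, 3.37 and 3.40 at 4 h and 3.90, 3.59 and 3.86 at 8 h of BMH-21. CX-5461 gave 3.48, 3.33 and 3.36, 3.30, 3.60 and 3.26 and 4.48, 4.14 and 4.40. It was already below every control library at 2 h of CX-5461, when the BMH-21 libraries still overlapped control. The change with CX-5461 was -0.62 (SE 0.12, adjusted p = 1.6e-05; centred -0.47) at 2 h and -0.62 (SE 0.12, adjusted p = 2.7e-06; centred -0.46) at 4 h, and that with BMH-21 -0.53 (SE 0.12, adjusted p = 4.3e-05; centred -0.38) at 4 h. At 8 h of BMH-21 it was -0.22 (centred -0.006), not past the threshold. It was called lower without control replicate 3 or BMH-21 replicate 1, and higher with median-ratio factors (0.14, adjusted p = 0.038). The 8 h rise with CX-5461, 0.34 (SE 0.12, adjusted p = 0.013; centred 0.12), was lost after centring (adjusted p = 0.072), with quantile normalization (0.08, adjusted p = 0.24) and without control replicate 3 (0.085) or CX-5461 replicate 1 (0.099) or 3 (0.058), in a range of 0.00052 to 0.24 over alternatives.

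Sdf2l1, which works with J-domain co-chaperones of BiP, had the largest rise at 8 h of CX-5461. Its libraries stood at 5.06, 4.91 and 4.87 in control, 4.67, 4.84 and 4.80 at 2 h of BMH-21, 4.49, 4.31 and 4.52 at 4 h and 4.79, 4.76 and 4.79 at 8 h. CX-5461 gave 4.82, 4.52 and 4.54, 4.64, 4.83 and 4.59 and 6.01, 5.75 and 5.94. The last 3 were the highest of the 21 libraries, on both scales. The rise was 0.95 (SE 0.11, adjusted p = 3.9e-13; centred 0.74), or 1.93-fold as deposited. At 4 h of BMH-21 it had fallen by 0.51 (SE 0.11, adjusted p = 3e-05; centred -0.36). The CX-5461 values of -0.32 (centred -0.17) at 2 h and -0.26 (centred -0.10) at 4 h passed the threshold as deposited (adjusted p = 0.024 and 0.031). The 2 h call was lost without control replicate 1 or 2 or CX-5461 replicate 2 or 3, and the 4 h call without control replicate 1 or CX-5461 replicate 1 or 3 and after centring. Both were lost with quantile normalization (-0.16 and -0.07) and with median-ratio factors (-0.13 and -0.01), and their adjusted p ran from 0.0051 to 0.15 and from 0.0092 to 0.90 over alternatives. At 8 h of BMH-21 Sdf2l1 was not called as deposited and was called higher with median-ratio factors (0.19).

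Herpud1, which assembles ER degradation complexes and carries the ERSE-II shown above, fell first and then rose with both compounds. It stood at 3.75, 3.80 and 3.52 in control, 2.96, 3.24 and 2.98 at 2 h of BMH-21, 3.32, 2.90 and 2.93 at 4 h and 4.08, 4.10 and 4.17 at 8 h. With CX-5461 the values were 3.60, 3.19 and 3.25, 3.72, 3.99 and 3.80 and 4.51, 4.36 and 4.46. The 2 h and 4 h BMH-21 libraries were below all control libraries and the 8 h libraries of both compounds above them. BMH-21 gave -0.63 (SE 0.12, adjusted p = 1.4e-05; centred -0.56), -0.64 (SE 0.12, adjusted p = 1.8e-06; centred -0.49) and 0.43 (SE 0.12, adjusted p = 0.00089; centred 0.64) at the 3 times. CX-5461 gave -0.35 (SE 0.12, adjusted p = 0.023; centred -0.20) at 2 h, 0.15 at 4 h, past the threshold only after rescaling (centred 0.30), and 0.75 (SE 0.12, adjusted p = 4.4e-08; centred 0.54) at 8 h. The 2 h call with CX-5461 was lost without control replicate 1 (adjusted p = 0.10) or 2 (0.13) or CX-5461 replicate 2 (0.17) or 3 (0.12), and with median-ratio factors (-0.16, adjusted p = 0.073), no filter (0.052) or eBayes without trend (0.055), in a range of 0.0044 to 0.17.

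The next question was whether the 2 compounds differed at the same dose and time. At 2 h, 3 of 10 genes were higher with BMH-21 than with CX-5461 (2.47% of all genes) and 0 were lower (1.52% of all genes). These were Dnajb9 (0.57 (SE 0.12, adjusted p = 0.00047; centred 0.50)), Ern1 (0.45 (SE 0.12, adjusted p = 0.017; centred 0.38)) and Xbp1 (0.34 (SE 0.11, adjusted p = 0.045; centred 0.27)). Only Dnajb9 kept its call without BMH-21 replicate 2 or 3 or CX-5461 replicate 2 or 3, each of which left a count of 1. After centring 3 were higher (7.83% of all genes) and 1, Herpud1, lower (7.58% of all genes). The adjusted p ran from 0.003 to 0.23 for Ern1 and from 5.1e-05 to 0.29 for Xbp1 over the alternatives. The Ern1 and Xbp1 calls were also lost with no filter or eBayes without trend. Hspa5 differed by 0.07 (SE 0.10, centred -0.002), Hsp90b1 by 0.12 (SE 0.10, centred 0.05) and Pdia4 by -0.03 (SE 0.11, centred -0.11). None passed the threshold as deposited, though Pdia4 was called lower with quantile normalization (-0.14) and median-ratio factors (-0.13).

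At 4 h, 1 gene was higher with BMH-21 (9.35% of all genes) and 3 were lower (8.49% of all genes). Ern1 was higher by 0.51 (SE 0.12, adjusted p = 0.0014; centred 0.50). Herpud1 differed most, by -0.78 (SE 0.12, adjusted p = 1.7e-07; centred -0.79), followed by Xbp1 at -0.56 (SE 0.11, adjusted p = 3.2e-05; centred -0.56) and Pdia4 at -0.39 (SE 0.11, adjusted p = 0.0046; centred -0.40). Centring gave 2 higher (27.4% of all genes) and 5 lower (18.5% of all genes): it added Hspa5 (-0.23) and Sdf2l1 (-0.26) as lower and Hsp90b1 (0.12) as higher. As deposited, Hspa5 was -0.22 and was called lower without BMH-21 replicate 1.

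At 8 h, 0 genes were higher with BMH-21 (12.0% of all genes) and 8 were lower (67.2% of all genes), so the count as deposited was near the background. After centring 1 was higher and 6 lower, when 31.1% and 40.6% of all genes were. Pdia4 (-1.28 (SE 0.11, adjusted p = 5.8e-21; centred -0.85)), Sdf2l1 (-1.12 (SE 0.11, adjusted p = 1.3e-16; centred -0.69)), Hspa5 (-1.04 (SE 0.10, adjusted p = 2.9e-17; centred -0.61)), Xbp1 (-1.01 (SE 0.11, adjusted p = 3.7e-15; centred -0.58)), Hsp90b1 (-0.92 (SE 0.10, adjusted p = 1.8e-14; centred -0.49)) and Atf6 (-0.73 (SE 0.11, adjusted p = 1.1e-08; centred -0.30)) were lower on both scales. Dnajb9 (-0.56 (centred -0.13)) and Herpud1 (-0.33 (centred 0.10)) were called only as deposited, and Herpud1 changed sign. Eif2ak3 was not called as deposited (-0.22) and was called higher after centring (0.21), but lower as deposited without BMH-21 replicate 3. Ern1, at -0.26 (centred 0.17), was called lower as deposited without BMH-21 replicate 1 or 3 and in 4 other fits with the deposited scaling (adjusted p 0.042 to 0.045), and higher with median-ratio factors (0.21).

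From 4 h to 8 h most members rose with both compounds. With CX-5461, 9 of 10 rose and 0 fell (58.8% and 4.85% of all genes), and after centring 9 rose and 1, Ern1, fell, when 25.8% of all genes rose and 32.0% fell. The members' median was 1.05 as deposited and 0.68 centred, against 0.34 and -0.04 over all genes. Pdia4 rose by 1.33 (SE 0.11, adjusted p = 2.2e-21; centred 0.96), Xbp1 by 1.33 (SE 0.11, adjusted p = 3.2e-21; centred 0.96), Hspa5 by 1.30 (SE 0.10, adjusted p = 2.3e-22; centred 0.92), Sdf2l1 by 1.21 (SE 0.11, adjusted p = 7e-18; centred 0.84) and Hsp90b1 by 1.15 (SE 0.10, adjusted p = 4.9e-19; centred 0.78). Dnajb9 (0.96 (centred 0.58)), Atf6 (0.70 (centred 0.33)), Herpud1 (0.61 (centred 0.24)) and Eif2ak3 (0.50 (centred 0.12)) rose by less. Leaving out any 1 library of these groups left 9 calls as deposited.

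With BMH-21, 6 of 10 rose and 1 fell between 4 h and 8 h (18.6% and 37.8% of all genes), and 8 and 1 after centring (28.3% and 42.2% of all genes). The median over the members was 0.33 against -0.14 over all genes. Herpud1 rose most, by 1.06 (SE 0.12, adjusted p = 2.4e-13; centred 1.13), then Xbp1 by 0.88 (SE 0.11, adjusted p = 5e-12; centred 0.94) and Hspa5 by 0.48 (SE 0.10, adjusted p = 1.8e-05; centred 0.55). Pdia4 (0.45 (centred 0.51)) and Sdf2l1 (0.34 (centred 0.41)) rose too. Dnajb9 (0.31 (SE 0.12, adjusted p = 0.019; centred 0.38)) lost its call without BMH-21 4 h replicate 2 or 3 or 8 h replicate 1 or 3 (adjusted p 0.068 to 0.096; 1.8e-07 to 0.096 over alternatives). Atf6, at -0.13, and Hsp90b1, at 0.11, did not pass the threshold as deposited, and centring called Hsp90b1 higher (0.17). Eif2ak3 was 0.22, called higher after centring (0.28) and, as deposited, without BMH-21 4 h replicate 1 or 8 h replicate 2.

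The difference between the compounds in this step was tested as an interaction. As deposited, 8 of 10 genes rose less (or fell more) with BMH-21 (61.4% of all genes) and 1, Herpud1, rose more (7.98% of all genes). Hsp90b1 differed most (-1.05 (SE 0.14, adjusted p = 5e-10; centred -0.61)), with Pdia4 at -0.89 (SE 0.15, adjusted p = 2.7e-07; centred -0.45) and Sdf2l1 at -0.87 (SE 0.16, adjusted p = 1.1e-06; centred -0.43). Herpud1 differed the other way, by 0.46 (SE 0.17, adjusted p = 0.014; centred 0.89), a call lost without BMH-21 4 h replicate 2 (adjusted p = 0.055; 9.2e-09 to 0.055 over alternatives). After centring 7 genes rose less (36.2% of all genes) and 2, Herpud1 and Eif2ak3, rose more (24.0% of all genes). For Xbp1 the difference was -0.45 as deposited but -0.02 after centring and 0.02 with quantile normalization, so its rise from 4 h to 8 h was not called different between the compounds on those scales. With median-ratio factors the calls of Dnajb9 (-0.10) and Ern1 (-0.23) were lost as well. Eif2ak3, at -0.28 (centred 0.16), was called as deposited only without BMH-21 8 h replicate 3 or CX-5461 4 h replicate 2.

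**Figure D3:**
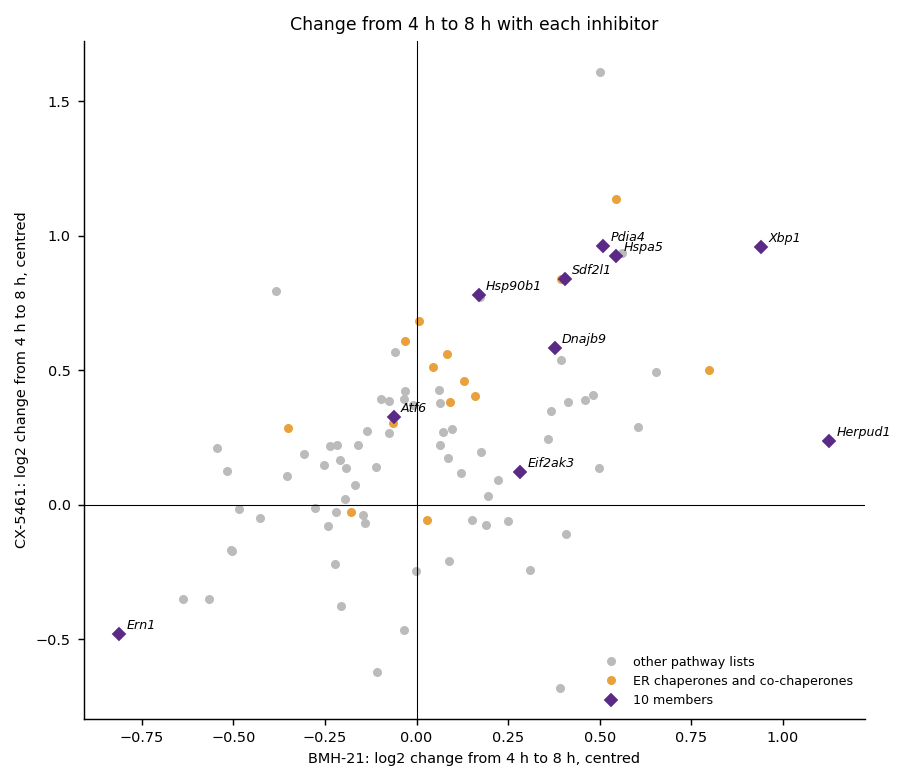
Log2 change from 4 h to 8 h after centring, with BMH-21 (x axis) and CX-5461 (y axis); each point is 1 gene (purple, the 10 members; orange, ER chaperones and co-chaperones; grey, other pathway genes). Herpud1 lies far to the right (1.13 with BMH-21, 0.24 with CX-5461), Hsp90b1 rose more with CX-5461 (0.78) than with BMH-21 (0.17), and Ern1 lies below 0 on both axes.

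Other genes of the pathway were followed through 6 lists holding 81 genes, none of them among the 10. After 8 h of CX-5461, 38 of 81 were higher and 6 lower as deposited, and 27 and 30 after centring. After 8 h of BMH-21, 11 were higher and 55 lower, and 21 and 50 after centring. The median over the 81 was 0.21 with CX-5461 and -0.46 with BMH-21, against 0.11 and -0.40 over all genes. At 8 h these medians lay near those of all genes. At 4 h of CX-5461, 63 of the 81 were lower as deposited (51.2% of all genes were) and 58 after centring (45.7%). From 4 h to 8 h of CX-5461, 69 rose as deposited (58.8% of all genes), and 50 after centring (25.8%), with a centred median of 0.21 against -0.04. The list counts below are to be read against the shares of all genes called higher and lower at 8 h, which were 35.1% and 14.3% with CX-5461 (29.3% and 44.7% after centring) and 24.5% and 56.9% with BMH-21 (33.3% and 51.3% after centring). The lists were not tested against each other.

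Among 14 other ER chaperones and co-chaperones, 12 were higher and 0 lower at 8 h of CX-5461 (8 and 2 after centring), and 1 and 10 at 8 h of BMH-21 (3 and 9). The median was 0.34 with CX-5461, against 0.11 over all genes, and -0.44 with BMH-21, near the -0.40 of all genes. Between 4 h and 8 h of CX-5461 all 14 rose as deposited, and 12 rose and 0 fell after centring. Dnajc3, a BiP co-chaperone, changed by 0.86 (centred 0.64) at 8 h of CX-5461. Manf, a secreted ER stress protein, was 0.58 (centred 0.37) with CX-5461 and -0.90 (centred -0.69) with BMH-21. Sil1, the nucleotide exchange factor of BiP, was higher with BMH-21 (0.43 (centred 0.65)) and Cnpy2 lower (-1.29 (centred -1.08)).

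Of 17 ER-associated degradation genes, 12 were higher and 0 lower at 8 h of CX-5461 (9 and 3 after centring), against 4 and 8 with BMH-21 (8 and 6). Their medians were 0.34 with CX-5461 and -0.21 with BMH-21, and the BMH-21 counts as deposited were near the shares of all genes. Derl3, of the derlin family of the degradation channel, was 1.48 (centred 1.27) with CX-5461. BMH-21 gave 0.67 (centred 0.88) for Edem1 and 0.54 (centred 0.75) for Os9, both of which select misfolded glycoproteins, as well as -0.92 (centred -0.71) for the ubiquitin-conjugating enzyme Ube2j1 and -0.72 (centred -0.51) for Vcp, the extracting ATPase.

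The PERK, ATF4 and CHOP arm of 8 genes had 3 higher and 2 lower at 8 h of CX-5461 (2 and 5 after centring) and 3 higher and 5 lower at 8 h of BMH-21 on both scales, with medians of -0.06 and -0.85 as deposited. Chac1, a glutathione-degrading enzyme downstream of ATF4, was lower with BMH-21 (-2.02 (centred -1.81)) and CX-5461 (-1.12 (centred -1.34)). Ddit3, the gene of CHOP, was higher with BMH-21 (1.10 (centred 1.31)), as was Cebpb with BMH-21 (1.17 (centred 1.38)) and CX-5461 (0.65 (centred 0.44)). Nupr1 was lower with BMH-21 (-1.56 (centred -1.35)). With CX-5461, Atf4 was lower (-0.52 (centred -0.74)) and Trib3 higher (0.51 (centred 0.30)).

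Of 13 other sensors and regulators, 4 were higher and 2 lower at 8 h of CX-5461 (3 and 7 after centring) and 1 and 8 at 8 h of BMH-21 (4 and 7), and the CX-5461 counts as deposited were near the shares of all genes. Creb3l1, an ER membrane transcription factor that is cut like ATF6, was higher with BMH-21 (2.19 (centred 2.40)) and CX-5461 (1.64 (centred 1.42)), and Creb3l2 with CX-5461 (0.69 (centred 0.48)). Nfya and Nfyc encode subunits of NF-Y, the factor that binds CCAAT. Nfya was -0.99 (centred -0.78) with BMH-21 and -0.56 (centred -0.78) with CX-5461, and Nfyc was -0.94 (centred -0.73) and -0.39 (centred -0.61).

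The disulfide list of 10 genes had 4 higher and 1 lower at 8 h of CX-5461 (3 and 3 after centring) and 1 and 8 at 8 h of BMH-21 (2 and 8), and the CX-5461 counts as deposited were likewise near those shares. Ero1lb, an oxidase that recharges disulfide isomerases, was higher with BMH-21 (0.92 (centred 1.14)) and CX-5461 (1.22 (centred 1.00)), and Txndc11 with CX-5461 (0.64 (centred 0.43)). Prdx4 was lower with BMH-21 (-0.89 (centred -0.67)) and CX-5461 (-0.43 (centred -0.64)), and Pdia5 with BMH-21 (-0.79 (centred -0.58)). Of 19 translocation and secretion genes, 3 were higher and 1 lower at 8 h of CX-5461 (2 and 10 after centring) and 1 and 16 at 8 h of BMH-21 (1 and 15). Sec24d, of the COPII vesicle coat, was 0.46 (centred 0.24) with CX-5461 and -1.004 (centred -0.79) with BMH-21. Its coat partner Sec23b was 0.44 (centred 0.23) and 0.33 (centred 0.54), and Ssr2, of the translocon, -0.26 (centred -0.48) and -1.11 (centred -0.90).

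**Figure D4:**
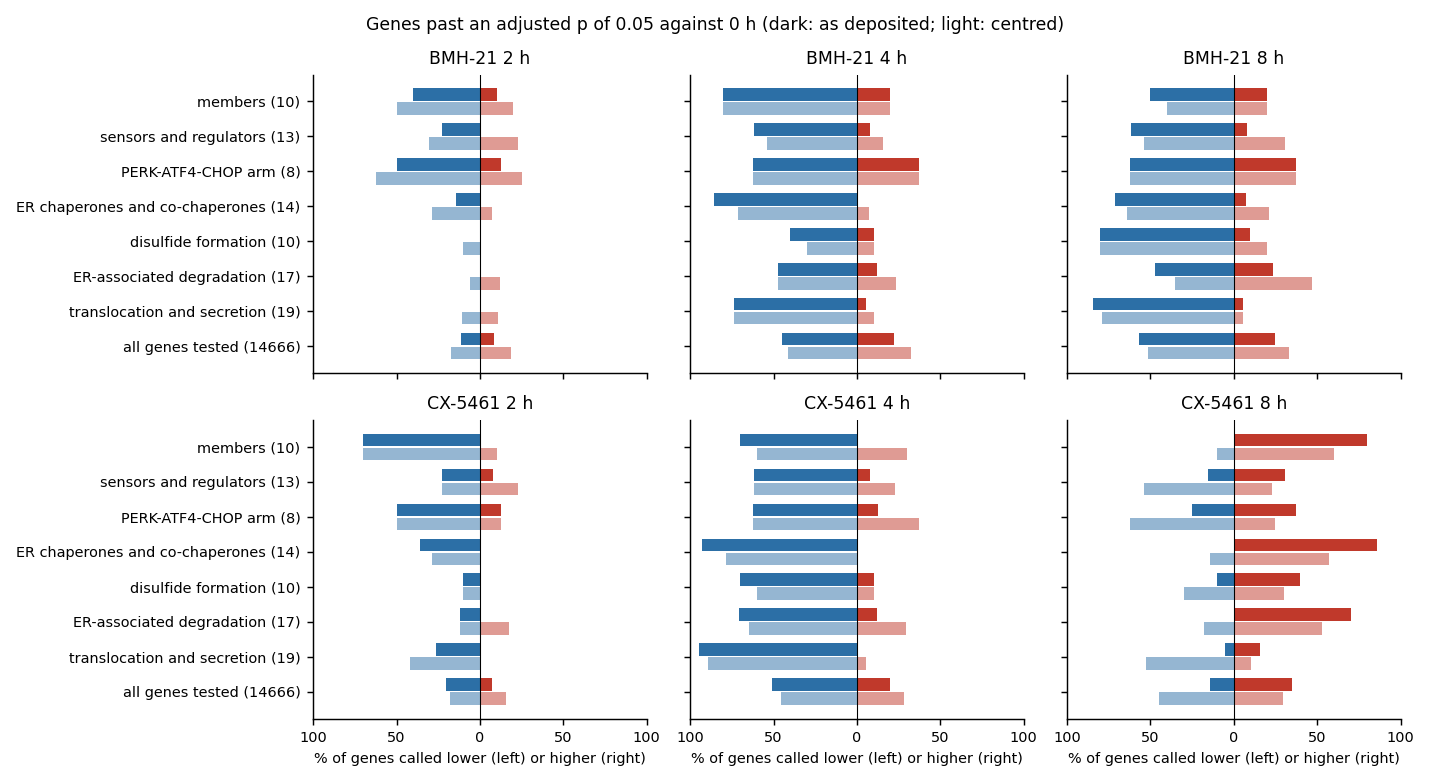
Percent of each list (y axis, number of genes in brackets) called higher (red, right) or lower (blue, left) than 0 h control, for each compound and time; dark bars are as deposited and light bars centred, and the last line of each panel is all 14666 genes tested. At 8 h of CX-5461, 8 of the 10 members and 12 of 14 chaperones were higher as deposited, and 6 and 8 after centring.

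Markers of other cell types were low in every group, but their summed linear levels differed between groups. The sums are as deposited and were not centred, so they include the common shifts given above. Over 7 feeder fibroblast markers the sum was 30.5 to 34.8 in control, 43.5 to 53.4 and 38.8 to 46.6 at 4 h and 8 h of BMH-21, and 43.0 to 44.3 at 8 h of CX-5461, with Lum at or under 3 reads in every library. Over 6 primitive endoderm markers it was 16.9 to 20.1 in control, 22.6 to 29.6 at 4 h of BMH-21 and 21.4 to 22.4 at 8 h of CX-5461. The medians were 19.7 in control and 21.8 at 8 h of CX-5461. On the log2 scale this rise was smaller than the common shift of 0.22 that centring removes there. The 6 trophoblast markers summed to 22.3 to 27.1 in control and to 40.6 to 45.3 at 8 h of CX-5461, the group in which the chaperone genes were highest. The part of these differences in the results on the members was not tested.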

How the data were processed

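The authors deposited 1 table of log2 expression values for 20900 genes in 21 libraries, under a name that says voom. Per the submitters' processing notes, mm10, Trim Galore 0.5.0, TopHat2 2.1.1, R 4.0.5, DESeq2 1.30.1, edgeR 3.32.1 and limma 3.46.0 were named, with no role or order, and how reads were counted is not given in the sources used here. Libraries were poly(A), directional and DNase-treated, per the labels' protocols. Columns were matched to samples by name, and 0 were left unmapped. Each value gave back a whole number of reads, to within 1.8e-08, once an offset of 0.5 reads and a scaling factor per library were taken out. Totals were 46604397 to 62812641 reads.

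The deposited log2 values were tested with limma 3.58.1 (R 4.3.3): all 21 libraries in 1 fit with a mean for each group, eBayes with a mean-variance trend, two-sided contrasts, Benjamini-Hochberg adjustment over 14666 genes, threshold 0.05. The filter set aside 6234 genes. There were 11 comparisons and 1 interaction. Because of the 0.5 offset, fold changes of low genes are too small. The variance prior held 111.5 degrees of freedom as deposited and 8.5 after centring, beside 14 from replicates. The median standard error of the members was 0.112 as deposited and 0.050 after centring, which takes out the spread that all genes of a library share. How far this shared spread affects the deposited p-values was not tested. The fit was also run on simulated data with gene variances from the centred fit, few changed genes and no spread shared within a library. The deposited values differ in each of these, so the simulation does not show how the fit performs on them. Alternatives were other scalings (centring on library medians, quantile normalization, median-ratio factors), filters, an offset of 5 reads, other variance models, voom weights, fits of the groups compared alone, a replicate block, and leaving out each library. All alternatives but the other scalings, and so all fits without 1 library, kept the deposited scaling. The alternatives for the interaction were chosen after seeing the data.

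The 10 genes, the lists and the tests were chosen with earlier results of these data known. Besides the 10, the text names from each list up to 2 largest rises and 2 largest falls at 8 h of each inhibitor, among genes past the threshold whose groups did not overlap, and the 5 genes nearest to Hspa5 and to Xbp1, the member with the largest change. One of the genes this rule selects is counted in its list but not reported here by name. Promoters were RefSeq sequences of GRCm38.p6. Figures were drawn with matplotlib 3.10.9.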

Additional observations from a re-analysis of the deposited data

Results flagged for a closer look

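Members whose response differed between the 2 compounds, by limma's test of the difference itself, are listed with BMH-21 minus CX-5461 on the log2 scale. In the change from 4 h to 8 h the differences were -1.05 for Hsp90b1, -0.89 for Pdia4, -0.87 for Sdf2l1, -0.82 for Atf6, -0.81 for Hspa5, -0.77 for Ern1, -0.64 for Dnajb9, -0.45 for Xbp1 and 0.46 for Herpud1. After centring, 8 of these 9 still passed the threshold, and Xbp1 did not (-0.02). Of all genes tested, 61.4% were called lower and 7.98% higher in this difference as deposited. After centring the shares were 36.2% and 24.0%.

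In the change from control at 2 h, Dnajb9 differed by 0.57, Ern1 by 0.45 and Xbp1 by 0.34. At 4 h Herpud1 differed by -0.78, Xbp1 by -0.56, Ern1 by 0.51 and Pdia4 by -0.39. All 7 of these differences passed the threshold after centring as well. Of all genes, 2.47% were called higher and 1.52% lower at 2 h (7.83% and 7.58% after centring). At 4 h the shares were 9.35% and 8.49% (27.4% and 18.5% after centring).

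At 8 h the differences were -1.28 for Pdia4, -1.12 for Sdf2l1, -1.04 for Hspa5, -1.01 for Xbp1, -0.92 for Hsp90b1, -0.73 for Atf6, -0.56 for Dnajb9 and -0.33 for Herpud1. After centring, Dnajb9 (-0.13) and Herpud1 (0.10) no longer passed. Of all genes, 67.2% were called lower and 12.0% higher at 8 h as deposited, and 40.6% and 31.1% after centring.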

How the results depend on the processing

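Of 12 counts of members past the threshold, including the interaction, 11 stayed within 1.5 times under each of centring, quantile normalization, median-ratio factors, no filter and eBayes without trend, and all 12 under the other settings apart from leaving out a library. These are counts in both directions together: for BMH-21 at 8 h, 2 higher and 5 lower became 4 and 3 with quantile normalization, and median-ratio factors made it 4 and 4. For BMH-21 against CX-5461 at 2 h the count of 3 became 5 with quantile normalization, 5 with median-ratio factors, 1 with no filter and 1 with eBayes without trend. Over all 14666 genes, 362 higher and 223 lower became 775 and 1072 with quantile normalization. For BMH-21 against CX-5461 at 4 h, 4 became 7 after centring. The shares of all genes grew as well, from 9.35% higher and 8.49% lower to 27.4% and 18.5%. Leaving out 1 library gave 3 to 7 members for CX-5461 at 2 h and 1 to 3 for BMH-21 against CX-5461 at 2 h. With the replicate block 4 member calls were lost: Hspa5 for BMH-21 at 2 h (-0.27, adjusted p = 0.058), Eif2ak3 for BMH-21 at 4 h (0.24, adjusted p = 0.058), Xbp1 for CX-5461 at 8 h (0.25, adjusted p = 0.055) and Xbp1 between compounds at 2 h (0.34, adjusted p = 0.063). The block changed no other member call. Between groups, correlations of samples with the same replicate number (-0.25 to 0.09) lay within those of different numbers (-0.26 to 0.38). They showed no pairing but cannot exclude one, and the labels do not say.

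Directions that turned did so mostly with the scaling (centring, quantile normalization and median-ratio factors, in that order where 3 values follow). Against control, Atf6 became 0.063, 0.059 and 0.071 and Dnajb9 0.029, 0.031 and 0.037 at 2 h of BMH-21. With 8 h of BMH-21, Sdf2l1 became 0.047, 0.11 and 0.19, Hspa5 0.42 (quantile) and 0.075 (median-ratio), Hsp90b1 0.23 (quantile), Ern1 0.11 (median-ratio) and Dnajb9 0.14 (median-ratio). With 8 h of CX-5461, Ern1 became -0.20, -0.34 and -0.10 and Atf6 -0.075 (centred), and at 2 h Atf6 became 0.0089 (quantile) and 0.030 (median-ratio). Between compounds at 8 h, Ern1 became 0.17, 0.16 and 0.21, Eif2ak3 0.21, 0.23 and 0.25, and Herpud1 0.099, 0.11 and 0.14. At 2 h Hspa5 became -0.0018, -0.029 and -0.031 and Eif2ak3 -0.0088 (quantile) and -0.028 (median-ratio), and at 4 h Eif2ak3 became -0.014 (median-ratio). Atf6 from 4 h to 8 h of BMH-21 became 0.049 (median-ratio). In the interaction Eif2ak3 became 0.16, 0.22 and 0.26 and Xbp1 0.018 (quantile) and 0.087 (median-ratio).

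Without 1 library, 9 changes not past the threshold as deposited took both signs: Atf6 (-0.10 to 0.10) and Dnajb9 (-0.12 to 0.015) at 2 h of BMH-21, Ern1 (-0.060 to 0.075) and Eif2ak3 (-0.011 to 0.096) at 2 h and Ern1 (-0.065 to 0.059) at 8 h of CX-5461, Pdia4 between compounds at 2 h (-0.098 to 0.039), Atf6 (-0.0070 to 0.18) and Eif2ak3 (-0.024 to 0.14) between compounds at 4 h, and Atf6 from 4 h to 8 h of BMH-21 (-0.21 to 0.0020). The cause of these turns was not tested. The spread between 3 replicates and the scaling limit what can be said of small changes.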

Other observations

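By mean absolute difference of deposited log2 fold changes over the 6 comparisons with control, the genes nearest to Hspa5 among 14666 were Gdpd1 (0.06), Nhsl1 (0.06), 4921525O09Rik (0.06), Rhog (0.07) and B230217C12Rik (0.08). Of the other 9 members, Hsp90b1 (0.15) and Sdf2l1 (0.16) were nearest, at ranks 103 and 128, while Eif2ak3 stood at rank 10272 and Ern1 at 11267. For Xbp1 the nearest genes were Frat1 (0.13), Trim34a (0.14), Tmem144 (0.16), Pcdhga1 (0.16) and C1galt1c1 (0.17), and Pdia4 was the nearest member (0.28, rank 103). The 6 comparisons share 1 control group, so these values describe likeness of pattern only.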
